A study of Mus musculus with 4 samples.

Results

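The genes described here are 10 that mark or control macrophages and dendritic cells: the growth factor Csf1 and its receptor Csf1r, the surface and lysosomal markers Adgre1 and Cd68, the adhesion and chemokine receptors Cx3cr1, Itgam and Itgax, and the activation genes Mrc1, Chil3 and Arg1. They were taken by gene name, with every probe that carried the name or its current alias (Emr1 is now Adgre1 and Chi3l3 is now Chil3). This gave 16 probes for 10 genes, out of 41142 probes and 21218 named genes on the array. A probe well above background on all 4 arrays existed for 7 of the 10 genes, on at least 2 arrays for 9, and on at least 1 array for all 10. The same counts over the named genes of the array were 14995, 16612 and 17448.

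RNA was measured in whole mouse kidney on Agilent 1-colour arrays, with 1 array in each of 4 groups and therefore no replicate check on any difference. The wild type groups were C57BL/6 mice, and the other groups were Nlrc5-/- mice labelled with the same background, all 8 weeks old. Nlrc5 is the transactivator of the MHC class I genes. How the allele was made, and which part of the gene it lacks, is not given in the sources used here. Each genotype had a kidney after a sham operation and an injured kidney, from mice given bilateral renal ischemia of 30 min followed by reperfusion. Titles and design text put reperfusion at 48 h, whereas the sample descriptions give 24 h, so the time is uncertain.

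Macrophages and dendritic cells sit between the tubules of the healthy kidney as a network of resident cells, and monocytes enter from the blood after ischemia. Both depend on growth factor receptors for their survival, of which Csf1r is the main one in macrophages. Resident renal phagocytes are known for Cx3cr1, Adgre1 and Itgax on the same cells, so the usual division into macrophages and dendritic cells is not sharp in this organ. Macrophages that take up debris and support repair are often described by Mrc1, Chil3 and Arg1.

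Levels are log2 of the background-subtracted signal minus the log2 of the array's 75th percentile of signal, so that 0 is the 75th percentile and each unit is a factor of 2. Where a gene had several probes, the probe brightest over the 4 arrays stands for it and the others are given beside it. The 75th percentile was 446 signal units for wild type sham, 453 for Nlrc5-/- sham, 177 for wild type injured and 353 for Nlrc5-/- injured, so the wild type injured array was the dimmest. It also had the lowest share of probes well above background, 67.3%, where the highest was 74.6%. Probes printed many times on each array gave the only error available, an SD of 0.12 (log2) for a difference between 2 arrays at signals over 100, 0.21 at 20 to 100 and 0.37 under 20. This is spot-to-spot error within arrays and contains no difference between animals. All 21 kidney genes checked, among them the tubular phosphate transporter Slc34a1 and uromodulin (Umod), were above background on all arrays. The probe for Nlrc5 read -4.05 and -3.73 in wild type and Nlrc5-/- sham and -3.30 and -3.58 in the injured pair. It did not separate the genotypes, and checks nothing if it lies outside the deleted part. Both wild type arrays lay on 1 slide and both Nlrc5-/- arrays on another, so slide and genotype cannot be told apart, while each injury comparison lay within 1 slide. The Nlrc5-/- sham array stood apart from the other 3, with Xist at 5.24 and the Y-linked gene Ddx3y not above background at -7.67. The other arrays had Ddx3y between 0.88 and 1.44 and Xist not above background. Eif2s3y, Kdm5d and Uty, also Y-linked, were likewise not above background on the Nlrc5-/- sham array alone. These genes give the pattern of a female kidney there and of male kidneys on the other 3 arrays, though the labels give no sex. Sex therefore cannot be told apart from injury or genotype in any comparison that uses the Nlrc5-/- sham array. The hemoglobin gene Hba-a1 was also highest on that array, at 4.92, against 1.86 in wild type sham.

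The array sequences are shown for 4 probes on which single results turn, 60 bases each, read 5′ to 3′ with their mm9 positions. Arg1 and Cd68 were measured by 1 probe each. The second probes of Cx3cr1 and Adgre1 read an earlier stretch of the transcript than the brightest ones and gave other values. Second probes of Itgam and Itgax, not shown here, also gave other values in some comparisons below.
Arg1 (chr10:24636194-24636253, minus strand): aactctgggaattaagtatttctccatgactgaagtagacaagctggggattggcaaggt
Cd68 (chr11:69478314-69478373, minus strand): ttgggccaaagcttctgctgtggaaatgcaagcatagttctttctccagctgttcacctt
Cx3cr1, second probe (chr9:119960610-119960669, minus strand): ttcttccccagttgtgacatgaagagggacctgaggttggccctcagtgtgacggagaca
Adgre1, second probe (chr17:57550221-57550280, plus strand): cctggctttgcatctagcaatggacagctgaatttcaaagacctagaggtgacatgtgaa
The Adgre1 probe shown was not above background on any of the 4 arrays, at -7.75, -7.79, -6.94 and -7.54 in wild type sham, Nlrc5-/- sham, wild type injured and Nlrc5-/- injured, although the brightest probe of that gene was above background on all 4. All values of Adgre1 below come from that brightest probe.

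RefSeq promoter sequences (GRCm38.p6, 250 bases before the start) were taken for 7 of the 10 genes, without Csf1r, Adgre1 and Arg1. They are shown for Chil3, Mrc1, Csf1 and Cd68, chosen after their values and motif matches were seen: 3 genes higher and 1 lower in wild type injury. Capitals mark matches on either strand to 4 motifs: GAGGAA for the myeloid factor PU.1, TGANTCA for AP-1, TTGCNNAA for C/EBP, and the decamer of NF-kB.
Mrc1 (chr2:14229164-14229413, plus strand): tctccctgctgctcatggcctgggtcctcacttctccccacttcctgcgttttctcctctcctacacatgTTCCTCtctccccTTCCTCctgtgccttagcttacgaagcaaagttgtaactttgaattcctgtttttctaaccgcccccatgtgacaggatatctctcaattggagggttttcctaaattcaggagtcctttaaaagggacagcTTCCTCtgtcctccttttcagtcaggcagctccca
Chil3 (chr3:106167565-106167814, minus strand): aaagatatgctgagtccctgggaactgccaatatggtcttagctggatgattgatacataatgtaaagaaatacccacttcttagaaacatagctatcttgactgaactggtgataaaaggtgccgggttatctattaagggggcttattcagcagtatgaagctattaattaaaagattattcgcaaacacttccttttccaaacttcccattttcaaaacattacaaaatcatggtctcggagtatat
Csf1 (chr3:107760470-107760719, minus strand): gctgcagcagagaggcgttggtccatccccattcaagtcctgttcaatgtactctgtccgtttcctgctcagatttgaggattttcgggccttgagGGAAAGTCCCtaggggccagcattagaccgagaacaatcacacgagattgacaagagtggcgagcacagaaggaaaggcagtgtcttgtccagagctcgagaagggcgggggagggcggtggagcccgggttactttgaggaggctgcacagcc
Cd68 (chr11:69666171-69666420, minus strand): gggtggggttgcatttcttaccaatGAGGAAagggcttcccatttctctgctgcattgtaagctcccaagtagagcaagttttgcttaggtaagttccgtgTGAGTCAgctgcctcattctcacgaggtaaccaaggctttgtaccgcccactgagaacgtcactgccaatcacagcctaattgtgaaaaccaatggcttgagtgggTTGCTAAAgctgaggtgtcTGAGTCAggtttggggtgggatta
Mrc1 held 3 matches to the PU.1 motif. Cd68 held 1 match to PU.1, 2 to AP-1 and 1 to C/EBP, and Csf1 held 1 match to NF-kB. Chil3 held none of these letters in this window. Of the 7 genes searched, 3 had a PU.1 match, 2 an AP-1 match, 1 a C/EBP match and 1 an NF-kB match. Over 32817 RefSeq promoter windows of the same length the shares with a match were 23.3%, 6.75%, 9.57% and 1.21%. A match describes letters and not a bound site.

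Injured wild type kidney had the 10 genes split into 2 sets of equal size at the 2-fold mark. Chil3, Arg1, Csf1, Cd68 and Itgam were at least 2-fold higher than in wild type sham, and Mrc1, Cx3cr1, Adgre1, Itgax and Csf1r at least 2-fold lower. Over all genes above background on either array, 14.7% were 2-fold higher and 14.9% 2-fold lower. The 5 lower calls all ended with the normexp background correction, described further on, and that of Csf1r also with the mean of its probes. In injured Nlrc5-/- kidney 3 of 9 genes above background were 2-fold higher than in Nlrc5-/- sham (Cd68, Csf1 and Itgax) and 0 were 2-fold lower, against 4.93% and 4.22% of all genes. With wild type sham as the reference in place of the Nlrc5-/- sham array, 3 were again higher, Cd68, Csf1 and Itgam, and 0 lower. The share of all genes was not taken for that reference. The median difference of the genes was 0.46 in wild type and 0.68 in Nlrc5-/-, with -0.00 and 0.02 over all genes. The wild type median falls between the 2 sets, where no gene lay. Whole kidney RNA does not tell fewer cells of a type from less RNA per cell. With limma fitted to all 4 arrays over 16612 genes, 0 genes (0%) had an adjusted p under 0.05 for injury and 0 (0%) for genotype, with 1 residual degree of freedom. In this additive fit the residual is the difference in injury response between the genotypes. Such a difference therefore counts as error in every SE and p from limma given here. The smallest adjusted p from limma was 0.404 for injury and 0.769 for genotype. At an unadjusted p under 0.05 there were 861 genes higher and 1016 lower with injury, and 567 higher and 345 lower in Nlrc5-/-.

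**Figure D1:**
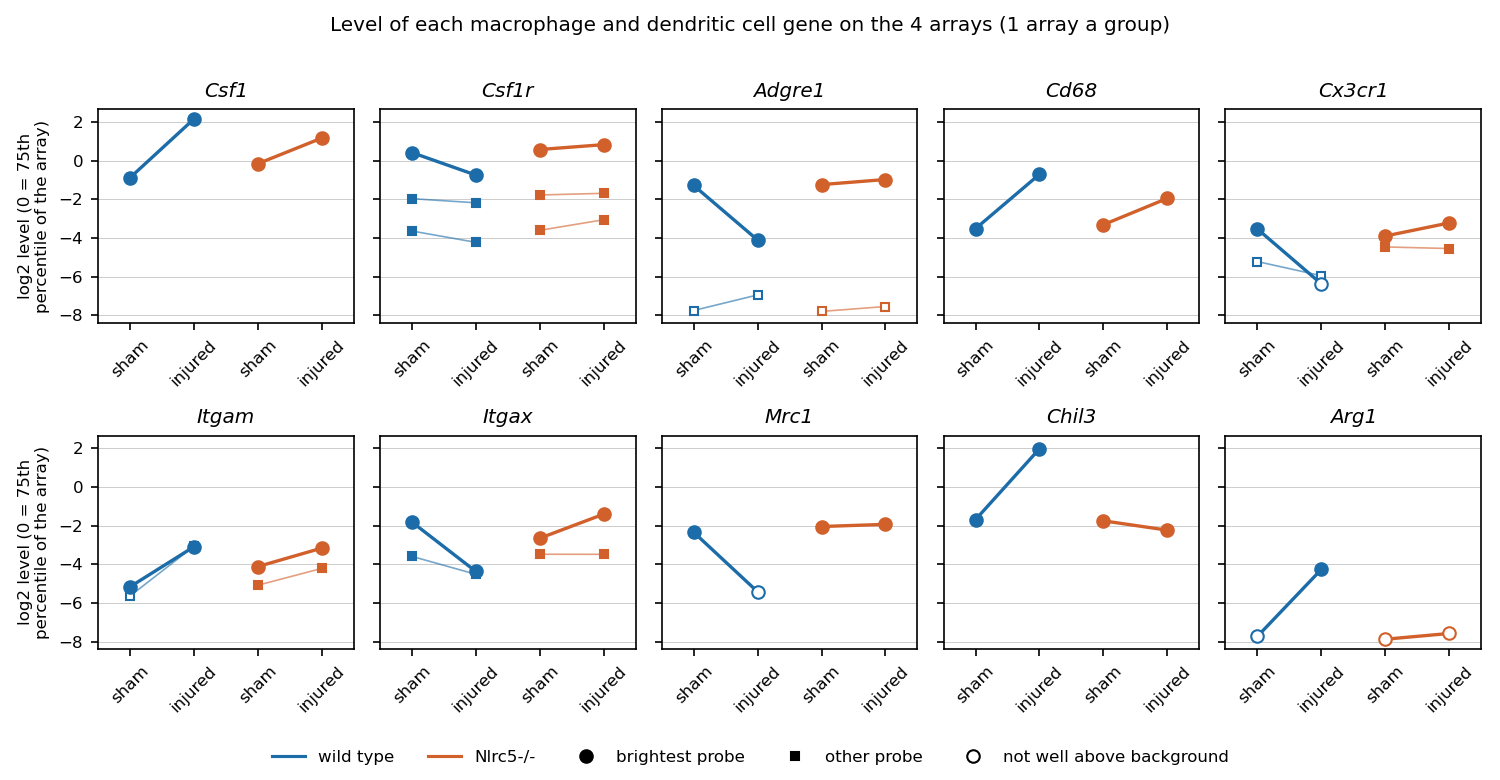
Log2 level (0 is the array's 75th percentile) of every probe of the 10 genes on the 4 arrays, with circles for the brightest probe, squares for other probes, and open symbols where the probe was not well above background. Lines join sham to injured within a genotype. In wild type Csf1 goes from -0.89 to 2.15 and Adgre1 from -1.28 to -4.10, while in Nlrc5-/- Adgre1 stays between -1.24 and -0.97.

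Csf1 encodes macrophage colony-stimulating factor, a secreted ligand of Csf1r that tubular cells can make after injury. Its level was -0.89 in wild type sham, -0.16 in Nlrc5-/- sham, 2.15 in wild type injured and 1.17 in Nlrc5-/- injured. Both injured arrays were above both sham arrays. Injured wild type kidney was 8.22-fold above its sham (3.04 on the log2 scale), and injured Nlrc5-/- kidney 2.51-fold above its own (1.33). The probe was printed 10 times on each array, and the SD of the log2 signal over its unflagged spots (9 of them on the Nlrc5-/- injured array) lay between 0.0381 and 0.142, which holds no difference between animals. Against wild type sham in place of Nlrc5-/- sham, injured Nlrc5-/- kidney was higher by 2.06, since Csf1 was already higher by 0.73 in Nlrc5-/- sham.

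Csf1r, the receptor tyrosine kinase that binds Csf1 and Il34, read 0.42 in wild type sham, 0.58 in Nlrc5-/- sham, -0.74 in wild type injured and 0.83 in Nlrc5-/- injured. Only the wild type injured array was apart from the others. The difference with injury was -1.16 in wild type, which is 2.24-fold lower, and 0.25 in Nlrc5-/-. The other 2 probes of Csf1r had the same order of signs with smaller sizes, -0.21 and -0.59 in wild type and 0.09 and 0.55 in Nlrc5-/-, and neither passed 2-fold in either genotype. The mean over the 3 probes gave -0.65 in wild type, short of the 2-fold mark.

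In wild type injury the ligand was thus higher (3.04) and the receptor lower at its brightest probe (-1.16). The receptor was under 2-fold lower with the mean of its probes and with normexp. In Nlrc5-/- injury the ligand was higher by 1.33, while the receptor differed by 0.25, well under 2-fold. Il34, the second ligand of Csf1r, read 0.95, 0.19, 4.33 and 2.06 over wild type sham, Nlrc5-/- sham, wild type injured and Nlrc5-/- injured. Its order over the arrays was not the same as that of Csf1, since Nlrc5-/- sham was lowest. It was higher by 3.37 in wild type injury and by 1.87 in Nlrc5-/- injury.

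Other factors and receptors of the lineage were given by a list of 18 genes, 14 of them above background on either wild type array. In wild type injury 4 were 2-fold higher (Il34, Klf4, Cebpb and Nr4a1) and 2 lower, Batf3 among them, with a median of 0.46. In Nlrc5-/- injury 1 was 2-fold higher (Il34) and 0 lower, with a median of 0.32. Klf4, a factor of monocyte differentiation that epithelial cells also make, was higher by 1.95 in wild type, and Cebpb, a factor of myeloid genes, by 1.79. Spi1, which encodes PU.1, and the growth factors Csf2 and Csf3 were not well above background on any array.

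Adgre1 encodes the adhesion receptor used as the classical surface marker of resident mouse macrophages. It read -1.28 in wild type sham, -1.24 in Nlrc5-/- sham, -4.10 in wild type injured and -0.97 in Nlrc5-/- injured. Both sham arrays and Nlrc5-/- injured lay close together, and wild type injured was far below them, at 10.3 signal units against 184 in wild type sham. That is 7.08-fold lower with injury in wild type (-2.82), against a difference of 0.26 in Nlrc5-/-. Ptprc, the CD45 antigen of all leukocytes, had a smaller difference of the same sign in wild type, from -1.10 to -2.00.

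Cd68, a lysosomal glycoprotein of macrophages, went the other way. Its levels were -3.51 in wild type sham, -3.31 in Nlrc5-/- sham, -0.70 in wild type injured and -1.95 in Nlrc5-/- injured. The sham arrays were close, and both injured arrays were above them. Injured wild type kidney was 7.01-fold above sham (2.81) and injured Nlrc5-/- kidney 2.57-fold (1.36). In the limma fit over both genotypes Cd68 was higher with injury by 2.09 (SE 0.46), with an unadjusted p of 0.0146 and an adjusted p of 0.43.

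Cx3cr1, the receptor for the membrane-bound chemokine fractalkine, read -3.53 in wild type sham, -3.89 in Nlrc5-/- sham, -6.37 in wild type injured and -3.22 in Nlrc5-/- injured. In wild type injured the probe was not above background, so the difference there is a bound, at least 2.25-fold lower than sham. In Nlrc5-/- the difference was 0.68 at 30.4 and 37.9 signal units. The second probe, whose sequence is shown above, was not above background on either wild type array and differed by -0.08 in Nlrc5-/- injury. Cx3cl1, which encodes fractalkine, was higher with injury by 1.51 in wild type and by 1.53 in Nlrc5-/-.

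Itgam encodes CD11b, the alpha chain of the complement receptor integrin, carried by monocytes, macrophages and neutrophils. It read -5.16 in wild type sham, -4.11 in Nlrc5-/- sham, -3.09 in wild type injured and -3.15 in Nlrc5-/- injured. Both injured arrays were above both sham arrays and within 0.07 of each other. The difference with injury was 2.07 in wild type (4.21-fold) and 0.96 in Nlrc5-/-, or 2.01 against wild type sham. These are dim signals, 12.5, 26.2, 20.8 and 39.6 units in the same order. The second probe was at least 5.31-fold higher in wild type injury and higher by 0.87 in Nlrc5-/- injury.

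Itgax encodes CD11c, the alpha chain best known from dendritic cells, which renal macrophages also carry. It read -1.80 in wild type sham, -2.65 in Nlrc5-/- sham, -4.35 in wild type injured and -1.40 in Nlrc5-/- injured. The lowest array was wild type injured, at 8.64 signal units where the lowest signal well above background was 6.80, and the highest Nlrc5-/- injured. The difference with injury was -2.56 in wild type (5.88-fold lower) and 1.25 in Nlrc5-/- (2.37-fold higher). Against wild type sham the Nlrc5-/- value was 0.40, because Nlrc5-/- sham was itself lower than wild type sham by 0.85. The second probe was at least 1.90-fold lower in wild type injury and differed by -0.00 in Nlrc5-/- injury.

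Itgam and Itgax share 1 beta chain, Itgb2, whose own differences with injury were small, 0.39 in wild type and 0.30 in Nlrc5-/-. So the alpha chains differed from sham in opposite directions in wild type kidney while the shared chain was under 2-fold. Of the 7 measured integrin and fractalkine partners, 2 were 2-fold higher in wild type injury (Icam1 by 1.94 and Cx3cl1) and 1 lower (Icam2 by -1.59), with a median of 0.71. In Nlrc5-/- injury the same 2 were higher, Icam1 by 1.47, and 0 were lower, with a median of 0.30.

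Mrc1 encodes the mannose receptor CD206, an endocytic receptor of tissue macrophages. It read -2.33 in wild type sham, -2.04 in Nlrc5-/- sham, -5.41 in wild type injured and -1.93 in Nlrc5-/- injured. On the wild type injured array, at 4.15 signal units, the probe was not above background, and on the others it lay between 88.7 and 110 units. Wild type injury was therefore at least 5.17-fold below sham, and Nlrc5-/- injury differed from its sham by 0.11.

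Chil3, also called Ym1, is a secreted chitinase-like protein of alternatively activated macrophages that neutrophils also make. It read -1.68 in wild type sham, -1.74 in Nlrc5-/- sham, 1.98 in wild type injured and -2.23 in Nlrc5-/- injured. One array, wild type injured, was high, and the other 3 lay close together. The 12.7-fold difference in wild type (3.66) was the largest among the 7 genes measured on both arrays, and the Nlrc5-/- difference was -0.48. Its near copy Chil4 read -4.86, -5.18, -3.09 and -5.49 in the order wild type sham, Nlrc5-/- sham, wild type injured, Nlrc5-/- injured, and whether either probe also binds the other transcript was not tested.

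Arg1 encodes the cytosolic arginase, which turns arginine into ornithine. Its probe was above background on the wild type injured array alone, at -4.26 and 9.24 signal units. The other arrays read -7.72 (wild type sham), -7.87 (Nlrc5-/- sham) and -7.57 (Nlrc5-/- injured), at 1.86 to 2.11 units. Wild type injury was at least 2.33-fold above sham, and no difference can be given for Nlrc5-/- injury.

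The mitochondrial isoform Arg2, which tubular cells express, was measured on all arrays and reached 2.77 in wild type injured from -2.11 in sham, a difference of 4.88. In Nlrc5-/- it went from -0.22 to -0.30. Gatm and Ass1, enzymes of creatine and arginine synthesis in the proximal tubule, were lower in wild type injury by -4.75 and -3.87. Of the 9 measured arginine and ornithine genes, 1 was 2-fold higher and 4 were lower in wild type injury (median -0.78), and 0 were higher and 1 was lower in Nlrc5-/- injury (median -0.52).

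**Figure D2:**
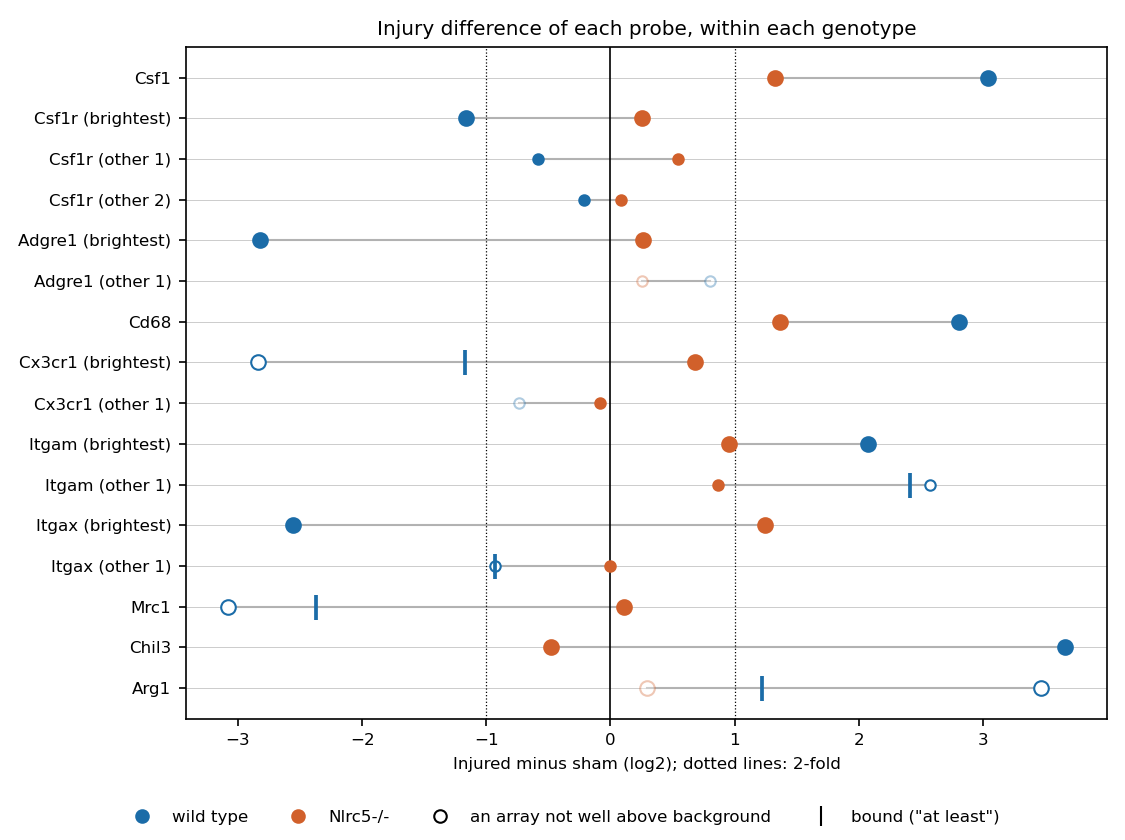
Injured minus sham (log2) for each of the 16 probes, wild type in blue and Nlrc5-/- in orange, with open circles where an array was not well above background, pale circles where no value can be given, and bars at the bound. Dotted lines mark 2-fold. Chil3 lies at 3.66 in wild type and -0.48 in Nlrc5-/-, and Itgax at -2.56 and 1.25.

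Between the sham arrays, of 9 genes above background, 1 was 2-fold higher in Nlrc5-/- (Itgam, by 1.05) and 0 were lower, where 5.6% of all genes were higher and 3.62% lower. That split depends on scaling, with 954 genes higher and 617 lower here, 690 and 913 with the median, and 709 and 717 with quantiles. The median was 0.15, against 0.05 over all genes. Adgre1, Chil3, Csf1r and Cd68 differed by 0.04, -0.06, 0.15 and 0.20, Mrc1 by 0.29 and Cx3cr1 by -0.36. Itgax at -0.85 and Csf1 at 0.73 were further apart without reaching 2-fold. The Itgam difference rests on signals of 12.5 and 26.2 units and was under 2-fold with the median or quantiles for scaling, and with the mean of its 2 probes (0.81).

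In Nlrc5-/- injured 5 of the 10 were 2-fold higher than in wild type injured (Mrc1, Cx3cr1, Adgre1, Itgax and Csf1r) and 3 were lower (Chil3, Arg1 and Cd68), where 11.2% of all genes were higher and 8.16% lower. The median was 0.75, against 0.04 over all genes. With normexp Csf1r alone stayed 2-fold higher (1.24), with Adgre1 at 0.93, Itgax at 0.54, Mrc1 at 0.39 and Cx3cr1 at -0.11, and Cd68 was no longer 2-fold lower (-0.82). With 50 added after scaling Cx3cr1 (0.70), Cd68 (-0.92) and Arg1 (-0.40) fell short of 2-fold. Mrc1 was at least 6.83-fold higher, Cx3cr1 at least 2.79-fold higher, Adgre1 8.74-fold higher (3.13), Itgax 7.75-fold higher (2.95) and Csf1r 2.97-fold higher (1.57). The other probes of Csf1r were higher by 0.49 and 1.17, and the second probe of Itgax was at least 2.04-fold higher. The second probe of Cx3cr1 was at least 1.115-fold higher, a bound that does not reach 2-fold.

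Chil3 was 18.5-fold lower in Nlrc5-/- injured than in wild type injured (-4.21), Cd68 2.36-fold lower (-1.24) and Arg1 at least 2.02-fold lower. Csf1 just missed the mark at -0.98, and Itgam differed by -0.07 at its brightest probe and by -1.14 at its second. These comparisons share the wild type injured array with the injury comparison in wild type, so the 2 sets of values are not independent. That array was also the dimmest, and its lowest signal well above background was 6.80 units. Of the 5 genes lower on it, 3 were above background there, Adgre1, Itgax and Csf1r, at 10.3, 8.64 and 106 units. The second probe of Itgax, at 7.77 units, was not. The part of the array's dimness in these differences was not tested.

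The response to injury in Nlrc5-/- minus that in wild type was 3.80 for Itgax, 3.09 for Adgre1 and 1.42 for Csf1r. It was -4.14 for Chil3, -1.71 for Csf1, -1.45 for Cd68 and -1.12 for Itgam. At the other probes of Csf1r it was 0.30 and 1.13. At the second probes it was 0.92 for Itgax and -1.70 for Itgam, each with 1 array not above background. The 3.80 of Itgax includes its lower level in Nlrc5-/- sham than in wild type sham (-0.85). With 1 array a group these differences have no test. In the limma fit over both treatments the smallest unadjusted p among the 9 genes tested for genotype was that of Mrc1, 0.111, with an adjusted p of 0.769. For injury 3 of the 9 had an unadjusted p under 0.05. They were Cd68, Csf1 (2.18, SE 0.52) and Itgam (1.52, SE 0.39), with adjusted p from limma of 0.43 each.

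Scaling by the median or by quantiles, or the authors' deposited value table, left all 10 wild type differences past 2-fold in the same direction. With the normexp correction, which adds 50 to each signal before scaling, none of the 5 lower genes stayed 2-fold lower. Adgre1 was then at -0.73, Csf1r at -0.85, Itgax at -0.14 and Mrc1 at -0.06, and Cx3cr1 turned to 0.36. Adding 50 after the arrays were brought to 1 common level, a setting chosen after the normexp result was seen, kept the sign of all 10, with Adgre1 at -1.48, Itgax at -1.18, Mrc1 at -1.05, Csf1r close to the 2-fold mark, Cx3cr1 at -0.57, Cd68 at 1.73, Itgam at 0.62 and Arg1 at 0.41. Chil3 and Csf1 stayed well past 2-fold, at 3.13 and 2.58 with normexp.

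**Figure D3:**
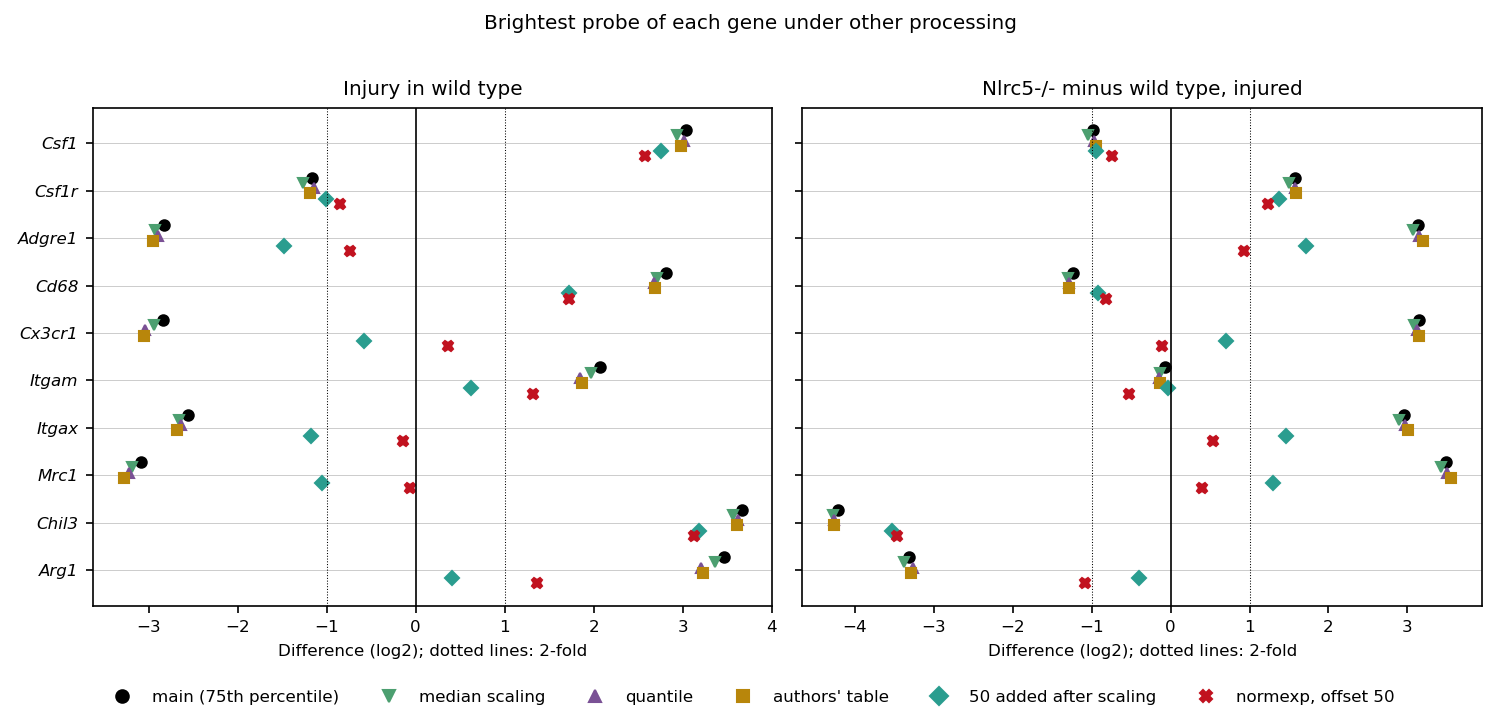
Log2 difference at the brightest probe of each gene under 6 ways of processing, for injury in wild type (left) and for Nlrc5-/- minus wild type in injured kidney (right), with dotted lines at 2-fold. Median scaling, quantiles and the authors' table lie beside the main value. Adgre1 moves from -2.82 to -1.48 and -0.73 and Cx3cr1 from -2.84 to -0.57 and 0.36 when 50 is added after and before scaling.

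In the lists that follow, a gene counts as 2-fold only where its measured difference or its bound passes that mark, while medians take each gene at its own signal. By that rule 14.5% of all genes were higher and 12.6% lower in wild type injury, 4.43% and 3.19% in Nlrc5-/- injury, and 8.63% and 7.82% between the injured arrays. Other macrophage and monocyte markers were a list of 35 with 30 above background. In wild type injury 7 were 2-fold higher and 9 lower, with a median of -0.68, and in Nlrc5-/- injury 2 were higher and 2 lower, with a median of 0.20. Clec4d, a lectin receptor of monocytes and neutrophils, was higher by 3.73 in wild type, and the inhibitory receptor Cd300lf by 2.61. C1qa and C1qc, chains of complement C1q made by tissue macrophages, were lower by -2.93 and -2.46, whereas C1qb, the remaining chain, differed by -0.10. Between the injured arrays C1qa was higher in Nlrc5-/- by 3.28 and C1qc by 3.17, with 11 genes of the list 2-fold higher and 3 lower and a median of 0.60.

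Dendritic cell markers other than Itgax had 13 of 17 genes above background in wild type injury. There 1 was 2-fold higher and 5 were lower, with a median of -0.88. In Nlrc5-/- injury 0 were higher and 1 lower, with a median of -0.03. Clec4a2, an inhibitory lectin receptor of conventional dendritic cells, was lower by -2.53 in wild type and higher by 2.45 between the injured arrays. Cd24a, which tubular cells also express, was higher by 2.28 in wild type. Clec9a, Ccr7 and Siglech were not above background on any array.

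Genes of alternative activation beside Mrc1, Chil3 and Arg1 were 5 higher and 2 lower of 12 in wild type injury (median 0.64), and 2 higher and 1 lower of 14 in Nlrc5-/- injury (median 0.01). The 5 higher in wild type injury were Arg2 (4.88), Chil4 (1.77), Mgl2 (1.68), Stat6 (1.20) and Tgfb1 (1.07). Arg2, which tubular cells express, is also counted among the arginine and ornithine genes above. The 2 lower were Clec10a and Igf1. Clec10a, the galactose-type lectin of Mrc1-bearing cells, was lower by -3.11 or more, since the injured array was not above background. The growth factor Igf1 was lower by -2.24. Genes of classical activation were mostly dim. Of 13 listed, 4 were above background in wild type injury, with Ptgs2 (cyclooxygenase) higher by 1.91, Irf5 by 0.23 and Cd40 by 0.10, and Il1b at -0.21. Nos2, Il12b and Il6 were not above background on any array.

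**Figure D4:**
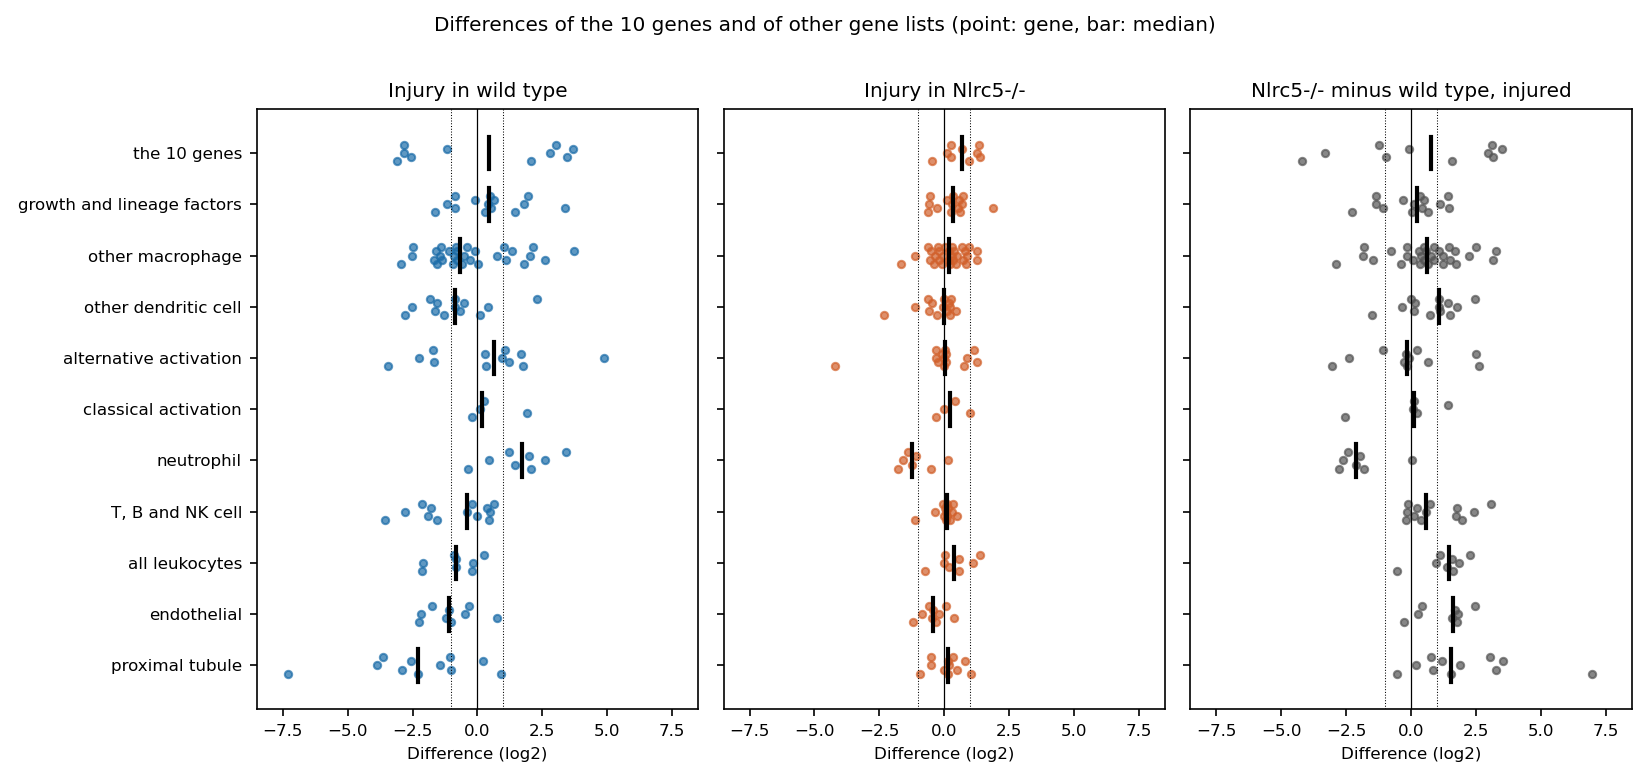
Log2 differences of the 10 genes and of other gene lists, each point a gene above background on either array (at its own signal where 1 array was not) and each bar the median, for injury in wild type, injury in Nlrc5-/- and Nlrc5-/- minus wild type in injured kidney. Neutrophil genes have a median of 1.71 in wild type injury and -1.25 in Nlrc5-/- injury. The 10 genes spread from -3.08 to 3.66 in wild type injury and from -0.48 to 1.36 in Nlrc5-/- injury.

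Markers of other cells also differed, and their part in the differences was not tested. Neutrophil genes were 6 higher and 0 lower of 8 in wild type injury (median 1.71, summed level 2.32 in sham and 3.71 in injured), and 0 higher and 3 lower of 7 in Nlrc5-/- injury (S100a8, S100a9 and Retnlg; median -1.25, 2.87 to 1.82). The lower neutrophil values depend on the Nlrc5-/- sham array, where these genes had a median of 0.59 over wild type sham. S100a8, S100a9 and Retnlg read 0.12, 1.76 and -2.72 in wild type sham and -0.79, 1.25 and -3.09 in Nlrc5-/- injured. Against wild type sham each was thus under 2-fold lower. Retnlg, a secreted protein of neutrophil granules, was higher by 2.06 in wild type and lower by -2.43 between the injured arrays, the same signs as Chil3. Elane and Ngp were not above background on any array. Markers of all leukocytes were 0 higher and 1 lower of 8 in wild type (median -0.82) and 2 higher and 0 lower of 8 in Nlrc5-/- (median 0.37). T, B and NK cell genes were 0 higher and 5 lower of 13 in wild type (median -0.41) and 0 higher and 0 lower of 14 in Nlrc5-/- (median 0.09). Endothelial genes were 5 lower of 9 in wild type (median -1.10) and 0 lower of 9 in Nlrc5-/- (median -0.43). Adipocyte genes were 5 lower of 6 in wild type injury (median -5.37), with Adipoq and Cfd at 0.45 and 4.17 in wild type sham and at -6.33 (not above background) and -3.96 in wild type injured. They were also 5 lower of 6 in Nlrc5-/- sham against wild type sham (median -5.66), with Adipoq not above background at -7.19 and Cfd at -2.94, so the wild type sham array, the reference of every wild type difference, stood apart in these genes. In Nlrc5-/- injury 1 of 4 was higher and 1 lower (median -0.48). Proximal tubule genes were 9 lower of 11 in wild type (median -2.30) and 0 lower of 11 in Nlrc5-/- (median 0.16).

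Over the 4 arrays, each gene above background on all of them was set against 14994 other genes by the root mean square difference of profiles after each gene's mean was removed, as a description with 4 points. Nearest to Csf1r was Gpsm3, a G-protein modulator of leukocytes, at 0.0099, before 9530091C08Rik at 0.0530 and Ece1 at 0.0553. Nearest to Adgre1 was C1qa at 0.0710, before the kidney genes Car14 at 0.109 and Slc5a12 at 0.111. Cd68 was nearest to Gm12854 at 0.0392, Itgam to Wee1 at 0.0618, Csf1 to Ammecr1 at 0.108, Itgax to Slc13a4 at 0.168 and Chil3 to Nrcam at 0.266. Chil3 thus had no neighbour as near as those of the other genes.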

How the data were processed

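Arrays were 1-colour Agilent whole-genome mouse arrays. Per the file headers the authors deposited scanner intensity from Agilent Feature Extraction 10.7.3.1 (build mm9, with spatial detrending); per the submitters' processing notes it was version 9.1. The deposited value table holds log2 values with no normalization named in the sources used here, and medians between 5.91 and 5.93. Processed signals of spots not flagged as outliers were averaged per probe on the log2 scale, and the 75th percentile of each array was subtracted. A probe not well above background entered differences at its own signal, and its fold is a bound against the array's lowest signal well above background. Genes were taken from the files' names, updated through RefSeq. The genes and lists were chosen with earlier results of these data known. Named beside the 10 genes are up to 3 of each list with the largest difference in wild type injury or between the injured arrays, the 3 nearest profiles, and others chosen after their values were seen. limma 3.58.1 (R 4.3.3; additive fit, genes above background on at least 2 arrays, Benjamini-Hochberg adjustment) was tested on simulated data. Alternatives were median and quantile scaling, normexp with offset 50, the deposited table, flagged spots, the mean of probes, fold thresholds, a floor, and 50 added after scaling. For normexp, spots flagged for their background were left out of its fit, chosen after 1 such spot had set it on 1 array. The number of arrays limits the precision.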

Additional observations from a re-analysis of the deposited data

Results flagged for a closer look

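For 6 genes the injury difference had opposite signs in the 2 genotypes, each with 1 array a group, so that the difference was not tested. The response in Nlrc5-/- minus that in wild type was 3.80 for Itgax, 3.09 for Adgre1 and 1.42 for Csf1r, and at least 2.48 for Mrc1 and 1.85 for Cx3cr1, whose wild type injured values were not above background. At their brightest probes these 5 were lower with injury in wild type and higher in Nlrc5-/-. The second probes of Itgax and Cx3cr1 were not higher in Nlrc5-/- injury, at -0.003 and -0.08. At other probes the response in Nlrc5-/- minus that in wild type was 0.30 and 1.13 for Csf1r. It was 0.92 at the second probe of Itgax, with 1 array not above background. With normexp none of the 5 stayed 2-fold lower in wild type injury, and Cx3cr1 was not lower there. For Chil3 it was -4.14, with a higher level in wild type injury and a lower one in Nlrc5-/- injury. On the Nlrc5-/- side the difference was small for Adgre1 (0.26), Csf1r (0.25) and Mrc1 (0.11).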

How the results depend on the processing

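Of the counts of genes past 2-fold, these moved by over 1.5 times. With normexp, wild type injury had 0 lower (8.02% of all genes) and Nlrc5-/- injury 1 higher (2.31%). Nlrc5-/- sham had 0 higher than wild type sham (1.32%), and Nlrc5-/- injured 1 higher than wild type injured (4.62%). With normexp limma called 3 of the 9 genes for injury (Csf1, Chil3 and Cd68) and 1 for genotype (Chil3), among 731 and 128 of all genes. Each of the 9 genes had the same SE in that fit, 0.396, so these calls do not rest on a gene's own spread. The genotype value of Chil3 averages 2 pairs, which in the main setting differed by -0.06 (sham) and -4.21 (injured). Over all genes normexp had 2247 higher and 1341 lower in wild type injury, against 2462 and 2494, and 395 and 211 in Nlrc5-/- injury, against 843 and 721. Cx3cr1 turned to 0.36 in wild type injury and to -0.11 between the injured arrays. By construction normexp's 50 weighs most on the array with the lowest signal, wild type injured. With 50 added after scaling, wild type injury had 3 higher, Nlrc5-/- injury 1 higher, the sham pair 0 higher and the injured pair 1 lower, where the shares of all genes were 8.03%, 2.15%, 1.2% and 4.34%. At a 1.5-fold threshold Nlrc5-/- injury had 5 higher (11.1% of all genes) and the sham pair 2 higher (14.7%) and 1 lower (10.5%), and at 4-fold Nlrc5-/- injury and the sham pair had 0 higher (1.69% and 1.18%). The sham pair had 0 higher with the median (4.05% of all genes), quantiles (4.16%), the authors' deposited table (4.22%) and the mean over probes (5.11%). It had 1 lower with the median (5.36%). Median scaling moved the median of all genes in the sham pair by -0.16 and in wild type injury by -0.10. Of 38 differences of single genes, 38 stayed within the spot-to-spot spread with median scaling and with flagged spots kept, 34 with quantiles, 33 with the authors' deposited table, 32 with a floor, 23 with the mean over probes, 14 with 50 added after scaling and 9 with normexp. Of the 9 in Nlrc5-/- injury, 3 did with wild type sham as the reference. Apart from Cx3cr1 with normexp, no difference past 2-fold changed sign in these settings. No paired analysis was possible because each group has 1 array. Depth is read here from signal over background, which limits Arg1, Cx3cr1 and Mrc1 to bounds and leaves Itgam near background. On the wild type injured array Adgre1 (10.3 units) and Itgax (8.64) were nearer background than Itgam (20.8). The lowest signal well above background there was 6.80.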
